A study of Mus musculus with 6 samples.

Results

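The regions described here are 627 binding peaks of Bapx1 in the E12.5 vertebral column that lay at promoters and had no counterpart in the peak list of NIH3T3 cells. They were 22.3% (95% interval 20.7 to 23.9) of the 2815 peaks in the deposited embryo list and 82.2% (79.3 to 84.8) of its 763 autosomal promoter peaks. A peak was taken if its summit lay within 5 kb of the nearest transcript start on an autosome and no NIH3T3 Bapx1 peak had its centre within 1 kb of its own centre. The other 136 promoter peaks had such an NIH3T3 peak and are called shared here. Beyond 5 kb lay 1937 further embryo-only peaks, and 14 peaks on chromosomes X and Y were not considered. The embryo-only share was larger among the autosomal peaks beyond 5 kb than among the promoter peaks, a difference that was not tested. Lack of an NIH3T3 peak was therefore not particular to promoters. The NIH3T3 list itself held 23205 peaks on the autosomes, X and Y. The members were thus selected on measured values, namely the peak calls in both experiments, and every ratio of ChIP to control tags at them is given as a description without a test.

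Chromatin immunoprecipitation and sequencing (ChIP-seq) maps where a protein sits on DNA, and was carried out with 1 library per condition. In the embryo, the ChIP was made with an S-peptide antibody on vertebral columns of CD1 embryos at E12.5 that carried S-peptide tagged Bapx1, and the control was made with the same antibody on wild type embryos. In NIH3T3, a mouse fibroblast line, V5-tagged Bapx1 was overexpressed from a vector and precipitated with a V5 antibody. Its control was a V5 precipitation that the labels describe both as cells with the empty vector and as wild type cells. The embryo samples were pools of dissected tissue from many animals, so different cell types of the vertebral column cannot be told apart. The tag, antibody, control and level of Bapx1 all differed between the embryo and the cell line, and their parts in any difference between the peak lists cannot be told apart. The libraries held 24855032 tags for embryonic Bapx1, 20704235 for its control, 9124697 for Bapx1 in NIH3T3 and 13327426 for the V5 control, each after 14 cycles of PCR.

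Bapx1, also called Nkx3-2, is a homeodomain protein of the NK family and acts mainly as a transcriptional repressor in vitro. It is expressed in the sclerotome, the part of the somite that forms the vertebrae, and promotes the formation of cartilage while holding back its maturation. Factors of this family recognise a short site that differs from the TAAT core of most homeodomain proteins, which for Bapx1 is TAAGTG or TGAGTG. Promoters of widely expressed genes in mammals are usually rich in CpG and carry sites for ETS factors, Sp1 (the GC box), NF-Y (the CCAAT box) and YY1, whereas promoters of tissue-specific genes more often lack CpG islands.

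The sequences below, read from the mm9 genome (NCBIM37) on the plus strand, show 7 of the 8 members with the smallest p that held the Bapx1 site within 50 bp of the summit. Capitals mark TAAGTG or TGAGTG, or their reverse complements CACTTA and CACTCA. The window reaches 50 bp to either side of the summit, except in Ppp6c and Commd5, where it touches an untranslated region and 30 bp around the site are given. Each name is that of the gene with the nearest start, and U6 and 7SK denote annotated copies of these small RNAs.
Ppp6c, chr2:39081853-39081882: acgtccgatccgTGAGTGgcgtctgcgaag
D19Wsu162e, chr19:46673247-46673347: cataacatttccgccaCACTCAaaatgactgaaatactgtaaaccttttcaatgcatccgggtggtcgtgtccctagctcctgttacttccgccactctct
U6, chr3:86186590-86186690: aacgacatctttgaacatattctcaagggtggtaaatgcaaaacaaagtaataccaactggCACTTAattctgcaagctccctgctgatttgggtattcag
Commd5, chr15:76730333-76730362: cccggaagtgtcTAAGTGgcacttcctgag
Mrc2, chr11:105154466-105154566: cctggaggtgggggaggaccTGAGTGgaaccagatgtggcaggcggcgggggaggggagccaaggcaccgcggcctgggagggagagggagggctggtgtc
Gm12905, chr4:123594528-123594628: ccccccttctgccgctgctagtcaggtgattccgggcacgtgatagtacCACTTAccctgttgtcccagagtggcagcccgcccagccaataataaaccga
7SK, chr13:54526746-54526846: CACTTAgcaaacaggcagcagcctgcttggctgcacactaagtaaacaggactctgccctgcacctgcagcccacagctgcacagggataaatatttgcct

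Other members with small p values lacked the site. Of the 4 such members with the smallest p within 1 kb of the start of a protein-coding transcript, Kif1b and Dna2 are shown, and those of Setd4 and Zfp719 reach into untranslated regions and are not printed. Capitals here mark the GC box GGGCGG and the CCAAT box on either strand, the ETS word CCGGAAG being absent from both windows. The Kif1b window held 1 GC box and 1 CCAAT box, while the Dna2 window held none of the 3 words.
Kif1b, chr4:148681926-148682026: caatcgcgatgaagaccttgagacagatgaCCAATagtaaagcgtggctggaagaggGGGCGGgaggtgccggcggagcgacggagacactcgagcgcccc
Dna2, chr10:62409630-62409730: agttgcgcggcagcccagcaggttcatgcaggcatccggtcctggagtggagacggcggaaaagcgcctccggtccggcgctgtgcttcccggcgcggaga

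The members were mostly small peaks with a few high ones. A member held 21 ChIP tags in the deposited list at the median, with quartiles of 16 and 28 and a range of 12 to 229. MACS, the peak caller, gave a median fold enrichment over the local background of 7.82 (range 3.61 to 32.2), and 132 members (21.1%) had a p of 1e-10 or less against the list's cutoff of 1e-05. The median length was 310 bp. MACS estimates the false discovery rate (FDR) of a peak from the peaks found with ChIP and control exchanged, and 57 members (9.09%, 6.96 to 11.6) had an FDR of 50% or less. Over all members the lowest FDR was 13.3% and the median was 61.2%. The shared promoter peaks (11.8%) and the embryo-only peaks beyond 5 kb (10.1%) held similar shares below this limit.

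The tags of both strands lay on opposite sides of the summits. MACS placed the summits from the tags of this same Bapx1 library. The arrangement and height of its tags around them are therefore partly fixed by that choice, and are given as a description. Tags on the plus strand were most frequent in the 20 bp centred 70 bp to the left of the summit and those on the minus strand 70 bp to the right. At these positions the Bapx1 library held 10.4 and 9.77 times its mean level beyond 400 bp from the summit. The wildtype control, whose tags did not place the summits, reached at most 1.64 times its own mean. In 620 of the 627 members (98.9%), between 20 and 80% of the ChIP tags lay on the plus strand. The plot of tags around the summits also shows the NIH3T3 libraries, in which Bapx1 reached 2.45 times its distant mean on the plus strand and 2.61 times on the minus strand, against 1.57 and 1.44 in the V5 control.

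**Figure D1:**
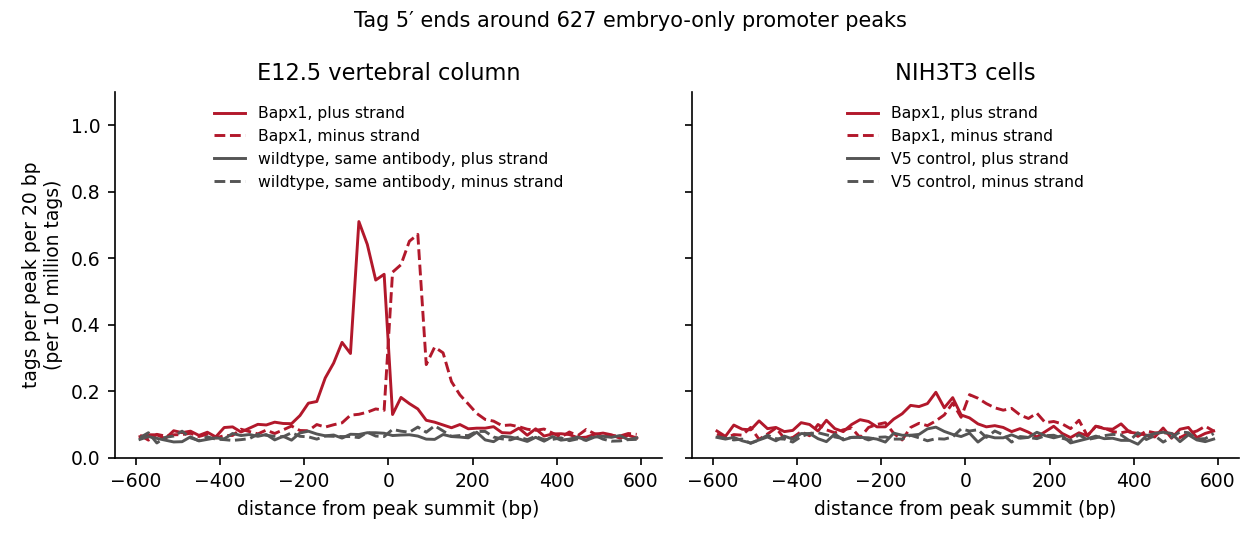
Tag 5′ ends per peak and 20 bp, scaled to 10000000 tags, against the distance from the summit in bp, summed over the 627 members; solid lines are the plus strand and dashed lines the minus strand. In the embryo (left) the Bapx1 library reaches 0.71 at 70 bp to the left on the plus strand and 0.672 at 70 bp to the right on the minus strand, and in NIH3T3 cells (right) Bapx1 reaches 0.197 and 0.19.

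Pooled over all members, the embryo libraries held 16136 Bapx1 tags and 3271 wildtype tags, which is a ratio of 4.11 (95% interval 3.96 to 4.27) after scaling to library size. At 2 kb to either side of the summits the ratio was 1.05 (1.01 to 1.08), and at all 86842 distinct transcript starts it was 1.07 (1.06 to 1.07). Single members held 12 to 228 Bapx1 tags with a median of 22, and 0 to 134 wildtype tags with a median of 4. For 562 members (89.6%) the lower bound of the ratio exceeded 1, as it did for 90.7% of all autosomal embryo peaks, and 16 members had no wildtype tag at all. All intervals cover counting error only.

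Although no NIH3T3 peak was called at them, the members were not devoid of Bapx1 tags in NIH3T3 cells. The pooled ratio of Bapx1 to V5 tags was 1.89 (1.78 to 2.01), from 2501 and 1847 tags, while it was 1.18 (1.12 to 1.24) at 2 kb to either side and 1.36 (1.35 to 1.37) at all transcript starts. The shared promoter peaks, which were selected for an NIH3T3 peak, had a ratio of 5.39 (4.84 to 6.02), and the embryo-only peaks beyond 5 kb had 1.26 (1.21 to 1.31). The term embryo-only therefore describes the 2 peak lists, and not the absence of NIH3T3 signal at these promoters. In single members the NIH3T3 counts left little to compare, since 339 members (54.1%) held at most 3 Bapx1 tags there and 55 held 0. At most 3 were also held by 14 shared promoter peaks (10.3%) and by 1508 embryo-only peaks beyond 5 kb (77.9%). The members were selected for having no NIH3T3 peak. A count of 0 allows up to 3 tags (one-sided 95% limit).

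The NIH3T3 ratio had a lower 95% bound above 1 in 81 members (12.9%), and the same held for 11.2% of all autosomal embryo peaks. It did so in 100 of the 136 shared promoter peaks (73.5%) and in 69 of the 1937 embryo-only peaks beyond 5 kb (3.56%). Within the members, the pooled NIH3T3 ratio was 2.19 (2.02 to 2.36) for summits within 1 kb of a start and 1.49 (1.35 to 1.65) for those at 1 to 5 kb. In CpG-rich windows, as defined below, it was 2.55 (2.3 to 2.82), and in the other members 1.6 (1.48 to 1.72). The surroundings differed in the same direction, with NIH3T3 ratios at 2 kb to either side of 1.27 within 1 kb against 1.06 at 1 to 5 kb, and of 1.38 around CpG-rich windows against 1.09 around the others. At the peaks, the embryo ratios of CpG-rich and other members were 3.85 (3.62 to 4.1) and 4.26 (4.06 to 4.46), so that the groups stood in the opposite order in the embryo. A further 74 members (11.8%) had the centre of an NIH3T3 peak at 1 to 5 kb, and none overlapped an NIH3T3 interval.

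**Figure D2:**
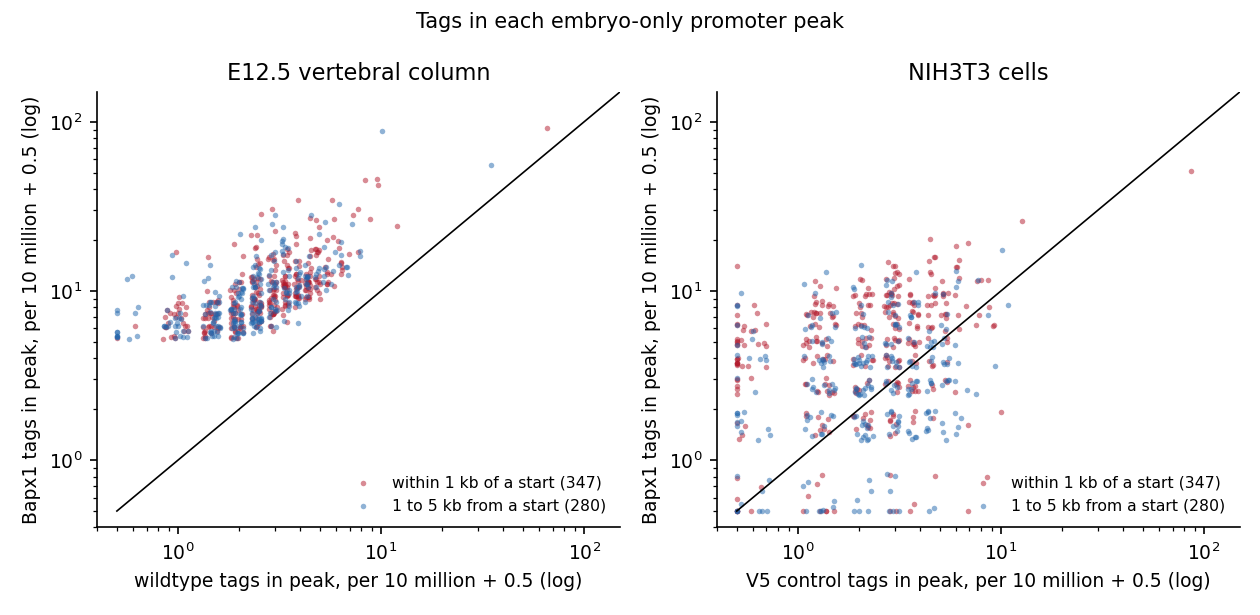
Each point is 1 of the 627 members, with its Bapx1 tags against its control tags per 10000000 library tags plus 0.5, both on log axes, and points are spread by up to 0.3 tags so that equal counts can be seen. In the embryo (left) the members lie above the line of equality because they were selected there, and in NIH3T3 cells (right) they lie on both sides of it, with 174 members at a ratio under 1.

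In 14 members (2.23%) the interval of the embryo ratio lay wholly above that of the NIH3T3 ratio, against 3.36% of all autosomal embryo peaks. The count was 80 of 1937 (4.13%) in embryo-only peaks beyond 5 kb and 0 of 136 in shared promoter peaks. The 14 were picked out after their values had been seen and carry no test. At Rplp0, which encodes a protein of the large ribosomal subunit stalk, the embryo libraries held 39 Bapx1 and 3 wildtype tags (ratio 10.8, 3.44 to 54.8) and the NIH3T3 libraries 1 Bapx1 and 12 V5 tags (0.117, 0.00273 to 0.788). At Setd4, a SET domain protein, they held 113 and 19 tags in the embryo (4.95, 3.03 to 8.53) and 2 and 6 in NIH3T3 (0.466, 0.046 to 2.61). Chchd7, with its summit 1 bp from the start, held 64 and 9 embryo tags (5.92, 2.93 to 13.5) and 5 and 9 NIH3T3 tags (0.777, 0.205 to 2.58). At all 3 promoters the V5 control held more tags than Bapx1 did in NIH3T3, and at Setd4 and Chchd7 the wildtype tags were above the members' median of 4 as well. Sostdc1, which encodes a secreted antagonist of BMP and Wnt signals, held 17 and 2 embryo tags (7.08, 1.68 to 63.2) and 1 and 7 NIH3T3 tags (0.2, 0.00443 to 1.56) at a summit in its coding sequence. The member at 4931408C20Rik met the same condition with 228 and 134 embryo tags, a ratio of only 1.42 (1.14 to 1.77), and 45 and 107 NIH3T3 tags (0.588, 0.406 to 0.841). All 4 libraries were high there.

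By p, the leading member lay 2736 bp downstream of a start of the lincRNA gene 1300002E11Rik, at chr16:21796724-21797853. It held 218 Bapx1 and 20 wildtype tags (9.08, 5.74 to 15.2) and 9 Bapx1 and 2 V5 tags in NIH3T3 (6.3, 1.3 to 59.9), with an NIH3T3 peak centred 3139 bp away. Its FDR was listed as 100%, in spite of the smallest p (10 times −log10 (p) of 1295.3). Ppp6c, the catalytic subunit of protein phosphatase 6, followed with 85 and 7 embryo tags (10.1, 4.7 to 25.9) at 73 bp into its 5′ untranslated region, and 11 and 3 tags in NIH3T3 (5.13, 1.36 to 28.6). Both of these members had an NIH3T3 ratio above 1 beyond its counting interval, with lower bounds of 1.3 and 1.36. At all transcript starts the NIH3T3 ratio was 1.36. Kif1b, a kinesin that carries mitochondria and vesicle precursors along microtubules, had 112 and 16 embryo tags (5.83, 3.44 to 10.6) at 174 bp upstream and 3 tags in each NIH3T3 library.

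The next members by p included D19Wsu162e with 70 Bapx1 and 4 wildtype tags (14.6, 5.45 to 55) at 269 bp upstream. A member 1529 bp upstream of an annotated U6 RNA held 69 and 5 tags (11.5, 4.7 to 36.5) and lay in an intron, with no start of a protein-coding transcript within 158028 bp. Commd5, a COMM domain protein, had 84 and 11 tags (6.36, 3.38 to 13.2) at 22 bp from its start. Mrc2, an endocytic receptor that takes up collagen, had 75 and 5 tags (12.5, 5.12 to 39.6) in an intron at 534 bp downstream, and in NIH3T3 8 and 2 (5.6, 1.12 to 54.1). The member at the non-coding Gm12905 lay 111 bp from a start of Rragc, a GTPase of the mTORC1 pathway, with 66 and 8 tags (6.87, 3.29 to 16.6). Zfp719, a zinc finger gene, held 104 and 19 tags (4.56, 2.78 to 7.88) at 8 bp from its start. Within 1 kb of a protein-coding start, where 298 members lay, the 10 smallest p values also took in Dna2, a nuclease and helicase of DNA replication, and Pick1, a PDZ domain protein that binds protein kinase C. Both held 52 Bapx1 and 4 wildtype tags (10.8, 3.98 to 41.2), while NIH3T3 held 4 and 3 tags at Dna2 and 7 and 1 at Pick1 (9.79, 1.26 to 441.4). Among the 5 members with the most tags were also 4931408C20Rik, with the values above, and the pseudogene Gm13717 with 137 Bapx1 and 71 wildtype tags (1.61, 1.2 to 2.17). At Gm13717 and 4931408C20Rik the wildtype control held more tags than at any other named member.

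The members at the limits of the selection had modest counts. Just inside 5 kb lay the members of Gm4694 at 4913 bp, with 24 Bapx1 and 3 wildtype tags, and of another U6 copy at 4965 bp, with 18 and 1. The first embryo-only peaks beyond it were those of Gm15562 at 5027 bp (15 and 3 tags) and Mms22l at 5052 bp (14 and 2). The NIH3T3 centres nearest to a member lay at 1009.5 bp from that of Erh and 1014.5 bp from that of 9130023H24Rik, with 8 and 13 NIH3T3 Bapx1 tags against 3 V5 tags each. Just on the other side, the peaks of Gm11228 at 971 bp and Itpr2 at 972 bp held 2 and 1 NIH3T3 Bapx1 tags in the embryo peak against 3 V5 tags each. The members with the weakest p were those of Mum1 (16 and 1 embryo tags) and Plod2 (18 and 3).

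Promoter peaks that were embryo-only lay further from transcript starts than those shared with NIH3T3. A summit lay within 1 kb of a start in 347 of the 627 members (55.3%, 51.4 to 59.3) and in 118 of the 136 shared peaks (86.8%, 79.9 to 92). The difference was -31.4 percentage points (-37.5 to -23.7). Distance to the start is among the values that chose the peaks, and it is given as a description. The median distance was 674 bp in members and 112 bp in shared peaks, 161 members lay within 100 bp, and 280 at 1 to 5 kb. Summits were upstream of the nearest start in 386 members (61.6%). The window around a start was used on both strands by 56 members (8.93%), which had starts of each direction within 1 kb.

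By annotation, 69 member summits (11%) lay in a 5′ untranslated region, 12 in coding exons, 3 in a 3′ untranslated region, 16 in exons of non-coding transcripts, 271 (43.2%) in introns and 256 (40.8%) between genes. The nearest start belonged to a protein-coding gene in 496 members (79.1%), to a processed transcript in 43, to a pseudogene in 28, to a lincRNA in 17, to a miRNA in 17, to a snoRNA or a snRNA in 7 each, and to a rRNA, another small RNA or an immunoglobulin gene in 4 each. The members were spread over 608 nearest genes, of which 12 had 2 or more members. Gm4694 had 5, Odz4, which encodes the cell surface protein teneurin-4, had 4, and Frmd4a and Pde9a, a phosphodiesterase of cGMP, had 3 each.

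Members also lay less often in CpG-rich DNA than shared peaks. The sequence within 150 bp of the summit was counted as CpG-rich if its GC content was at least 50% and its ratio of observed to expected CpG at least 0.6, which held for 196 members (31.3%, 27.6 to 35.1) and for 89 shared peaks (65.4%, 56.8 to 73.4). The difference was -34.2 percentage points (-42.4 to -25.1), with an adjusted p of 6.38e-13 (two-sided Fisher's exact test, Benjamini-Hochberg over 5 tests). The CpG-rich share of members fell with distance, that of shared peaks fell up to 2500 bp, and the groups differ in distance. Among summits within 100 bp of a start, 68.9% of members (61.2 to 76) and 85.9% of shared peaks (75 to 93.4) were CpG-rich, and from 100 to 250 bp the shares were 54% (43 to 64.8) and 72% (50.6 to 87.9). At 1000 to 2500 bp the order was the other one, with 6.67% of 120 members and 0% of 9 shared peaks, and at 2500 to 5000 bp the shares were 3.75% of 160 members and 22.2% of 9 shared peaks. The intervals of both groups overlapped in these ranges, and the part of distance in the overall difference was not tested.

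**Figure D3:**
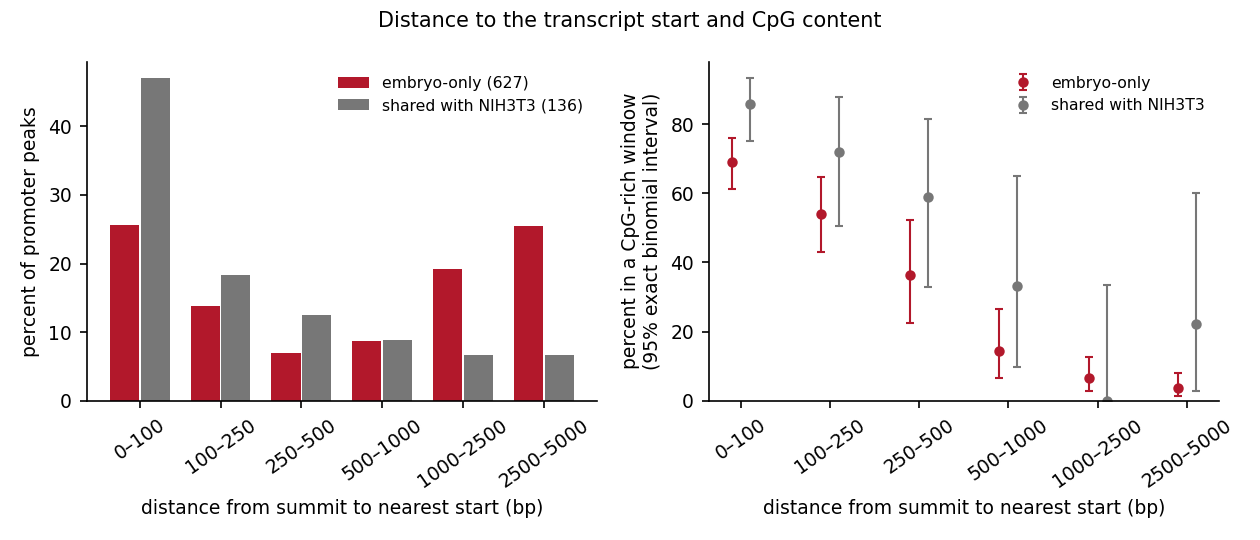
Left, percent of the 627 members and of the 136 shared promoter peaks in each range of distance in bp from the summit to the nearest transcript start; right, percent in a CpG-rich window in each range, with exact binomial 95% intervals. Of the members 280 lie beyond 1000 bp, and the CpG-rich share of members declines from 68.9% within 100 bp to 3.75% beyond 2500 bp.

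The Bapx1 site was concentrated at the summits of the members. The study reports this site as known from earlier work and as enriched in its own Bapx1 peaks. Its motif search covered 50 bp to either side of the summits of the peaks with the most tags. The members come from the same peak list, so the test below is not independent of that search. Counting both strands, 50 bp to either side of the summit held TAAGTG or TGAGTG in 185 of 627 members (29.5%, 26 to 33.2), and in the window of equal length 500 bp to the left in 64 (10.2%, 7.95 to 12.8). In 169 members it occurred at the summit only and in 48 in the left window only, an excess of 19.3 percentage points (exact McNemar test, two-sided, adjusted p = 2.7e-16). The window 500 bp to the right held it in 62 members (9.89%) and the windows around all transcript starts in 8.41% (8.23 to 8.6). TAAGTG rose from 3.03% in the left window to 15.8% at the summit, and TGAGTG from 7.34% to 15.3%. With a further G, TAAGTGG occurred in 52 members (8.29%) against 4 and 5 in the windows to the left and right and 0.693% of all transcript starts. Its reverse complement CCACTTA had, of all words of 7 letters, the largest excess of the summit count over the mean of both flanks, a ranking made after the data had been seen. Among members within 1 kb of a start it had rank 3, behind CCGGAAG and CCCGCCC. In CpG-rich windows it was not among the 10 leading words. The site was present once in 165 members and at least 2 times in 20, and its nearest copy lay 18.5 bp from the summit at the median.

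The share with the site was compared with that of shared promoter peaks and of embryo-only peaks beyond 5 kb, and neither difference passed the test. It was 28.7% (21.3 to 37.1) in shared promoter peaks, a difference of 0.829 percentage points (-7.97 to 8.68; Fisher's exact test, adjusted p = 0.917). In embryo-only peaks beyond 5 kb it was 31.4% (29.3 to 33.5), a difference of -1.88 points (-5.91 to 2.32; adjusted p = 0.498, Fisher's exact test). In the peaks beyond 5 kb that were shared with NIH3T3 the share was the highest, with 43 peaks (42.6%, 32.8 to 52.8), and its difference from members was not tested. For both tested differences the intervals still allow either direction, and their direction changed with the window, the motif or the peak set chosen. Within the members the site occurred in 30.8% (26 to 36) within 1 kb of a start and in 27.9% (22.7 to 33.5) at 1 to 5 kb, and in 28.1% (21.9 to 34.9) of CpG-rich and 30.2% (25.9 to 34.7) of other windows. The intervals overlapped in both of these splits.

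**Figure D4:**
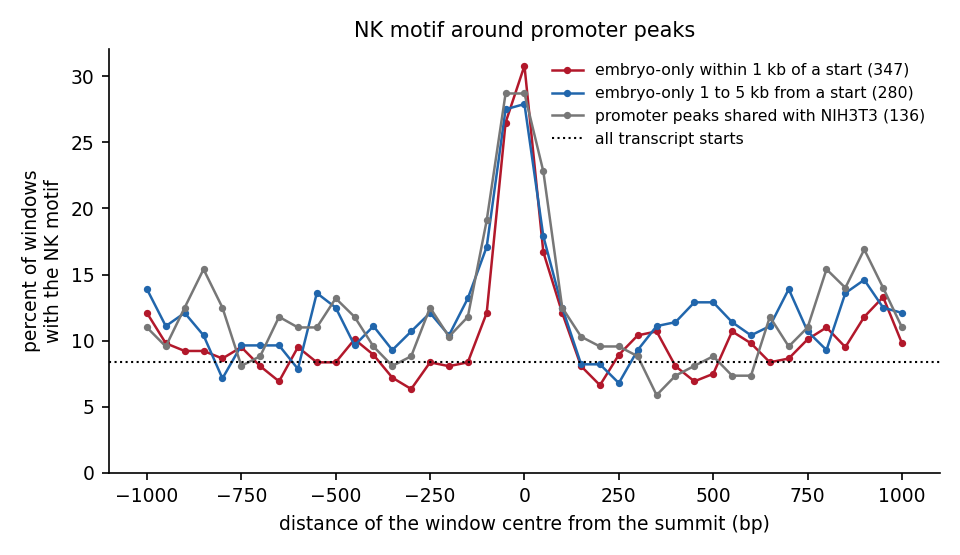
Percent of windows (50 bp to either side of their centre) with TAAGTG or TGAGTG on either strand against the distance of the window from the summit in bp, for members within 1 kb of a start (347), members at 1 to 5 kb (280) and shared promoter peaks (136); the dotted line is the 8.41% of all transcript starts. At the summit the 3 groups reach 30.8, 27.9 and 28.7%, and at 500 bp to the left they are at 8.36, 12.5 and 13.2%.

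The site was more frequent in the strongest members. Ordered by p into 5 groups of 125 or 126 members, the group with the smallest p held it in 59 of 125 members (47.2%, 38.2 to 56.3), and the other groups in 21.6 to 28%, without a steady trend among them. The study's own motif search also used the peaks with the most tags. Members with the site had 23 tags at the median and those without 20, and their pooled embryo ratios were 4.55 (4.25 to 4.88) and 3.93 (3.76 to 4.11). In NIH3T3 the corresponding ratios were 2.16 (1.93 to 2.41) and 1.79 (1.67 to 1.93). Both cell sources thus gave the higher ratio where the site was present, and both differences are descriptions of peaks picked by their p.

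Members near starts carried some words of CpG-rich promoters as well. The list of words was assembled after the data had been seen, and their counts are given without a test. In members within 1 kb of a start, the intervals of the ETS word and the CCAAT box lay above the shares of all transcript starts. Those of the GC box and the YY1 word included the shares of all starts. The ETS word CCGGAAG occurred within 50 bp of 44 member summits (7.02%, 5.14 to 9.31) against 11 and 8 in the windows to the left and right, and in 4.61% of all transcript starts. Of these 44 members 43 lay within 1 kb of a start, where they made up 12.4% (9.12 to 16.3). The GC box GGGCGG was found in 12.8% of members (10.2 to 15.6), 4.94 and 5.9% of their flanks and 18.7% of all starts, and in 19.6% (15.6 to 24.2) of members within 1 kb of a start. The CCAAT box was found in 18.5% (15.5 to 21.8), 10.2 and 12.1% of flanks and 12.1% of starts, and in 25.4% (20.9 to 30.3) of members within 1 kb. In shared promoter peaks both were more frequent than in members, at 27.9% (20.6 to 36.3) for the GC box and 37.5% (29.4 to 46.2) for the CCAAT box, with intervals that do not overlap those of all members, although for both words they overlap those of the members within 1 kb. AAGATGGC, a word bound by YY1, was present in 11 members (1.75%, 0.879 to 3.12) against 2 in each of the windows to the left and right. It was present in 2.59% (1.19 to 4.87) of members within 1 kb and in 1.99% of all starts.

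Some words rich in A and T were rarer at the summits than beside them, and others were more frequent. The homeodomain word TAATTA occurred at 1 member summit (0.159%, 0.00404 to 0.885) and in 14 and 13 of the windows to the left and right, the TATA word TATAAA at 17 against 36 and 32, and the GATA word AGATAA at 12 against 25 and 29. In the other direction, the Forkhead word TGTTTAC occurred at 18 summits against 8 and 7, and ACTACAA at 22 against 8 and 5. The GC content of the summit windows was 54.2% and that of the flanks 48.7 and 48.3%, and its part in these counts was not tested. Members at 1 to 5 kb from a start had leading words of alternating CA or TG, such as ATGTGTG at 33 summits against 7 and 18 in the flanks and ACACACA at 35 against 17 and 19, and CCACTTA ranked the seventh among them. The longer repeat ACACACAC was present in 24 of these 280 members (8.57%, 5.57 to 12.5) against 9 and 11 in the flanks, and in 9 of the 347 members within 1 kb (2.59%, 1.19 to 4.87).

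**Figure D5:**
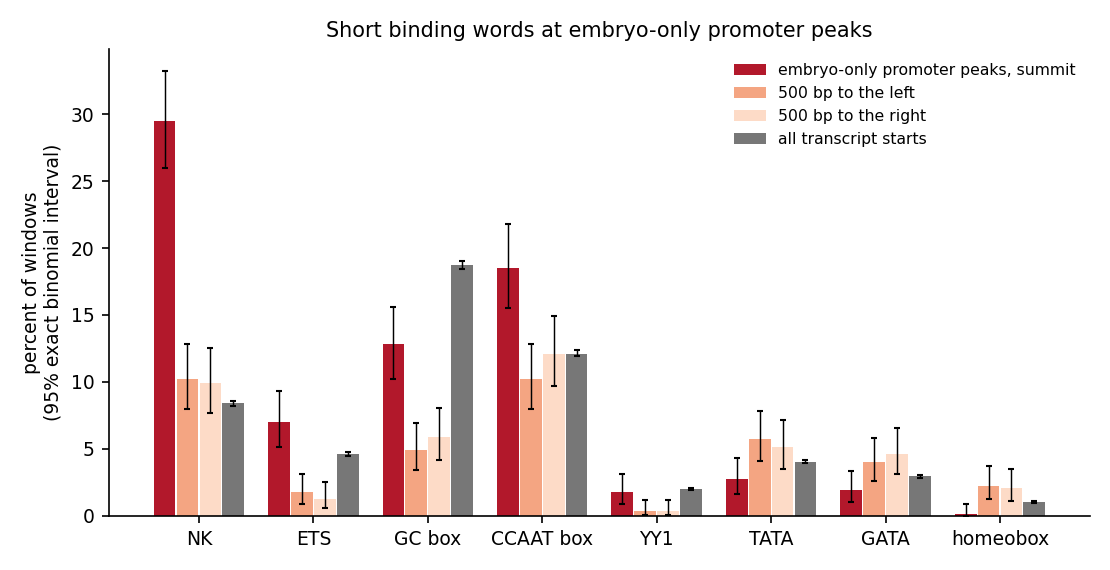
Percent of windows that hold each word on either strand, at the summits of the 627 members, in their windows 500 bp to the left and right, and around all transcript starts, with exact binomial 95% intervals. The NK site (29.5%), the ETS word (7.02%), the GC box (12.8%), the CCAAT box (18.5%) and the YY1 word (1.75%) are above both flanks at the summit. The TATA, GATA and homeobox words are below both.

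Counted by gene, 583 of 21418 autosomal protein-coding genes (2.72%, 2.51 to 2.95) had a member summit within 5 kb of the start of one of their transcripts. Gene lists by role are set beside this share below. Their members were not chosen by binding, but the lists were made with earlier results of these data known, they are small, and no list was tested.

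Among 16 genes of the hedgehog pathway, which patterns the sclerotome and induces Bapx1, 4 had a member (25%, 7.27 to 52.4). They were the transcription factors Gli2 and Gli3 and the co-receptors Gas1 and Cdon. The FDR of these 4 members lay between 59.3 and 63.2%. Gli3 held 31 Bapx1 and 8 wildtype tags in the embryo (3.23, 1.45 to 8.13) and 9 Bapx1 and 3 V5 tags in NIH3T3 (4.2, 1.05 to 24.1), with the site at the summit 998 bp from its start. Gas1 held 22 and 1 embryo tags (18.3, 2.96 to 756.3) and 6 and 1 NIH3T3 tags (8.39, 1.02 to 386.1), also with the site, at 3467 bp. Gli2 held 26 and 6 embryo tags (3.61, 1.45 to 10.7) and 6 and 1 NIH3T3 tags (8.39, 1.02 to 386.1) at 69 bp. For these 3 genes the NIH3T3 ratio exceeded 1 by its interval although no peak was called there. The lower bounds of 1.02 to 1.05 lay below the NIH3T3 ratio of 1.36 at all transcript starts. Cdon held 14 and 1 embryo tags (11.7, 1.77 to 493.1) and 1 and 5 NIH3T3 tags (0.28, 0.00592 to 2.5) at 1549 bp, with an NIH3T3 peak centred 5020 bp away.

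Of 19 genes of the cartilage matrix, 3 had a member (15.8%, 3.38 to 39.6), all of them collagens of cartilage fibrils. The FDR was 70.3% at Col9a1, 62.8% at Col9a3 and 57% at Col11a2. Col9a1 held 20 Bapx1 and 2 wildtype tags (8.33, 2.02 to 73.5) at 722 bp from a start, and 1 and 2 tags in NIH3T3. Col9a3 held 25 and 4 (5.21, 1.8 to 20.6) at 1960 bp and Col11a2 14 and 2 (5.83, 1.34 to 52.9) at 3155 bp, but in both the nearest start of a protein-coding transcript was 13931 and 17296 bp away. None of the 3 had the site at its summit, and in NIH3T3 Col9a3 held 2 Bapx1 and 4 V5 tags and Col11a2 0 and 3. Of 15 chondrogenic regulators 2 had a member (13.3%, 1.66 to 40.5), with an FDR of 68.7% at Sox6 and 61.3% at Smad3. The interval of this share included the 2.72% of all genes. Sox6, a partner of Sox9 in the activation of cartilage genes, held 17 and 2 embryo tags (7.08, 1.68 to 63.2) at 272 bp with the site at the summit, and 2 and 0 tags in NIH3T3. Smad3, which transmits TGF-beta signals, held 44 and 10 (3.67, 1.82 to 8.17) at 1058 bp, and 0 and 3 in NIH3T3.

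Other signalling and patterning lists had 1 or 2 genes with a member. For each list in this paragraph, the interval of the share included the 2.72% of all genes. The FDR of the members counted for these lists lay between 55.8% (Vegfa) and 70.3% (Pknox2). In the sclerotome and somite list, 1 of 23 genes (4.35%, 0.11 to 21.9) had a member, the tendon factor Scx with 33 and 13 embryo tags (2.11, 1.08 to 4.38) at 4719 bp. Of the 57 listed Wnt genes 1 (1.75%, 0.0444 to 9.39) had one, the agonist Rspo1 (27 and 5; 4.5, 1.71 to 15), and Sostdc1 and the R-spondin receptor Lgr6, which also had a member, are not on the list. Of 42 genes of BMP and TGF-beta signalling 2 (4.76%, 0.582 to 16.2) had one, namely Smad9 (18 and 5; 3, 1.07 to 10.3) beside Smad3. Among 29 matrix proteases and their inhibitors 2 (6.9%, 0.846 to 22.8) had one, namely Mmp15 (33 and 7, ratio 3.93, 1.71 to 10.5) and Adamts6 (19 and 4, ratio 3.96, 1.31 to 16). Among 21 vascular and blood genes 1 (4.76%, 0.12 to 23.8) had one, Vegfa (14 and 4, ratio 2.92, 0.916 to 12.2). Among 9 Pbx and Meis genes 1 (11.1%, 0.281 to 48.2) had one, Pknox2 (29 and 6, ratio 4.03, 1.64 to 11.9). At Vegfa, a growth factor for blood vessels, the interval of the embryo ratio included 1. The site was present at the summits of Rspo1, Vegfa and Pknox2.

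No gene of the Hox list (0 of 39, which allows up to 9.03%), the NK homeobox list (0 of 22, up to 15.4%), the list of hypertrophy and bone (0 of 22, up to 15.4%) or the neural list (0 of 30, up to 11.6%) had a member. The same was true of 79 histone genes (up to 4.56%) and of 63 genes of splicing and RNA binding (up to 5.69%). Every one of these upper limits lay above the 2.72% of all genes, so the counts of 0 do not set these lists apart from all genes. Bapx1 itself is in the NK homeobox list and had no member.

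Some genes expressed in most cells also had a member. For each list here and in the next paragraph, the interval of the share included the 2.72% of all genes. The histone and splicing lists above had no gene with a member. Of 79 ribosomal protein genes 5 had one (6.33%, 2.09 to 14.2). The FDR was 18.9% at the member counted for Rpl8, 21.4% at Rps21, 23.5% at Rps3, 37.3% at Rplp0 and 54.9% at Rps27l. At Rps21, of the small subunit, the libraries held 65 Bapx1 and 11 wildtype tags (4.92, 2.58 to 10.3) and 8 Bapx1 and 6 V5 tags in NIH3T3 (1.87, 0.568 to 6.52), 26 bp from the start. Rps3, of the small subunit as well, held 46 and 3 embryo tags (12.8, 4.11 to 64.2) and 4 and 1 NIH3T3 tags. Rplp0 was described above, Rps27l held 17 and 5 (2.83, 1 to 9.82), and Rpl8 was counted through the member at the start of Commd5, 4135 bp away. The summits of Rps21, Rplp0 and the Commd5 member had the site.

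Of 88 genes of oxidative phosphorylation 5 had a member (5.68%, 1.87 to 12.8), each within 108 bp of the start. These were Ndufb5 (28 Bapx1 and 7 wildtype tags; 3.33, 1.42 to 9.04) and Ndufs7 (33 and 12; 2.29, 1.15 to 4.87) of complex I, and Atp5b (14 and 1), Atp5d (18 and 5) and Atp5g3 (21 and 5) of ATP synthase. Ndufb5 also held 10 Bapx1 and 2 V5 tags in NIH3T3 (7, 1.49 to 65.7), whereas Ndufs7 held 10 of each (1.4, 0.523 to 3.75). Of 119 genes of the proteasome and chaperones 3 had a member (2.52%), namely Psmc1, Dnajc13 and Dnajc9, the last through a summit 4729 bp away. Of 52 cell cycle genes the same was true of 2 (3.85%), Ccnd1 (cyclin D1) with 25 and 5 tags (4.16, 1.57 to 13.9) and Mcm3, of the replicative helicase, with 19 and 5 (3.17, 1.14 to 10.8). Of 39 immediate early genes Ier2 had one (2.56%), with 25 and 8 embryo tags (2.6, 1.14 to 6.68) and 14 and 5 NIH3T3 tags (3.92, 1.33 to 13.9) at 4 bp from its start and an NIH3T3 peak centred 1488.5 bp away. Over the lists of this paragraph, the FDR of the members lay between 54.1% (Ier2) and 69.1% (Ndufb5).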

How the data were processed

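The authors sequenced ChIP libraries, mapped 35 bp tags to mm9 and deposited tag positions without normalization, and, for each ChIP, a list of MACS peaks (p cutoff 1e-05) relative to its control. The deposited list holds for each peak a count of ChIP tags, a score for its significance (10 times −log10 (p)), a ratio to the local background (fold enrichment) and an FDR in percent. Peaks were not called again. The members and the gene lists were chosen with earlier results of these data known.

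Here 1 tag per position and strand was kept, which removed 2.36% of the NIH3T3 Bapx1 tags and 6.53% of the V5 tags, and none in the embryo. Tag 5′ ends were moved by 38 bp in the embryo and 62 bp in NIH3T3 libraries (MACS d of 77 and 124), counted in the deposited embryo intervals, and divided by the tags of each library that fell on the autosomes, X and Y. Starts were those of all GENCODE vM1 transcripts, whereas the study used RefSeq, and gene list symbols were matched with RefSeq synonyms. For a share or a tag ratio the 95% interval is the exact binomial one of Clopper and Pearson, and for a difference of shares it is that of Newcombe. Comparisons used the exact McNemar test and two-sided Fisher's exact tests at 0.05, adjusted over 5 tests. The genome and annotation were read with Python 3.11.15, numpy 2.4.6, pandas 2.3.3 and scipy 1.17.1, and the ratio interval and motif search were tested on simulated data.

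The genes named are the 10 members with the smallest p, the 5 with the most tags, the 10 with the smallest p within 1 kb of a protein-coding start, all listed genes with a member within 5 kb (at most 6 a list), and the peaks next to each limit. Other features named were chosen after their values were seen, as the text says. With 1 library per condition no variation between replicates can be measured, and the tests, over peaks, describe these libraries. The Sox9 and IgG libraries were not used here. The sequence of 1 further member is not reported here.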

Additional observations from a re-analysis of the deposited data

How the results depend on the processing

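Of 67 alternatives, 48 kept the direction and the side of the threshold of a test, stayed inside the 95% interval of a ratio or share, or stayed within 1.5 times a count. The number of members was 875 with a limit of 10 kb to the start, 462 with protein-coding starts, 347 with a limit of 1 kb to the start and 132 with an embryo p of 1e-10 or less. The embryo ratio was 3.68 within 200 bp and 2.39 within 500 bp of the summit, 5.96 at a p of 1e-10 or less and 3.93 within 1 kb of a start. The NIH3T3 ratio was 1.59 within 500 bp of the summit, 2.12 at a p of 1e-10 or less, 2.11 with protein-coding starts and 2.19 within 1 kb. The share of genes with a member was 1.65% at 1 kb, 3.97% at 10 kb and 0.537% at a p of 1e-10 or less.

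The motif difference from shared promoter peaks became -3.2 points with 25 bp and -5.81 with 100 bp on either side, and -0.229 with an NIH3T3 limit of 5 kb. That from embryo-only peaks beyond 5 kb became 1.54 points with TAAGTG alone, 2.46 with TAAGTGG or TGAGTGG and 6.88 at a p of 1e-10 or less. Neither difference passed the threshold under any alternative, and the cause of these changes was not tested. No paired analysis was possible because each condition holds 1 library, and for the same reason no library could be left out. Depth limits single members most in NIH3T3 cells, where a count of 0 allows up to 3 tags (one-sided 95% limit).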
